A study of Mus musculus with 6 samples.

Results

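*Axl*, *Tyro3* and *Mertk*, the 3 genes of the TAM family of receptor tyrosine kinases, and the genes of their 2 ligands, *Gas6* and *Pros1*, were followed in whole mouse lungs at E18.5. These 5 genes of the 19938 measured were taken by their symbol, through probe sets that the array annotation ties to exactly 1 gene, and each had 1 such probe set. The family was selected on the deposited signals of all 6 lungs, in which *Axl* stood among the genes lower in the mutant, so the values of *Axl* are a description and the test across all genes adds nothing independent for it. RNA came from 3 *Tnrc6a* null lungs and 3 WT lungs, each from a single embryo and hybridised to its own Affymetrix Mouse Gene 1.0 ST array. The null embryos were homozygous for a gene trap insertion that puts β-galactosidase into the *Tnrc6a* (GW182) locus and is not restricted to a cell type, and the controls were WT embryos. Both groups had the C57Bl/6 strain background, to which the mutants had been backcrossed, and neither received a treatment. The comparison asks how loss of *Tnrc6a*, which encodes a partner of Argonaute proteins in the microRNA pathway, goes with the level of each mRNA.

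TAM receptors span the cell membrane and carry a tyrosine kinase inside the cell. Outside, they bind GAS6 or protein S, the product of *Pros1*, and both ligands bridge the receptors to phosphatidylserine on dying cells through an end that is carboxylated with vitamin K as cofactor. In lung, MERTK and AXL serve macrophages in clearing dying cells and in damping cytokine and interferon signals, and AXL is also found on fibroblasts and vascular cells.

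Values are the authors' processed log signals. The labels name log2, but the base of the logarithm could not be settled from the files, so differences between *Tnrc6a* null and WT means (null minus WT) stay on this deposited log scale and are not turned into folds. Probes differ in brightness, so a higher signal of 1 gene than of another is not read as more RNA. *Tnrc6a* itself lay at 5.45, 5.04 and 5.40 in null lungs, against 7.38, 7.13 and 7.18 in WT lungs, and it was the only gene past an adjusted p of 0.05 (difference -1.93, standard error 0.128, adjusted p = 0.00312 from limma). Defining genes of lung epithelium were present in all 6 lungs, with the surfactant gene *Sftpc* between 11.66 and 11.82 in null lungs and between 11.64 and 11.82 in WT lungs. The array medians ran from 4.98 to 5.03. Null replicate 3 correlated most closely with WT replicate 1, at 0.992 across genes (all pairs of lungs gave 0.979 to 0.993), and no label names anything that these 2 lungs share. Results are therefore also given without both. Dim genes tended to be higher in null lungs and bright genes lower, with median differences of 0.15 in the dimmest and -0.06 in the brightest of 10 equal groups of genes. All 5 family members lay above the median signal, where 65.4% of genes had a difference below 0 and 33.5% one above 0.

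The 3 null lungs lay below the 3 WT lungs for *Axl*, and for no other member. By limma 0 of the 5 members passed an adjusted p of 0.05, as against 0.00502% of all genes. At an unadjusted p under 0.05, 1 of the 5 was lower, *Axl*, and 0 higher. Of all genes 5.42% lay under this p, 2.96% lower and 2.46% higher, and of those above the median signal 5.25% were lower and 1.51% higher. *Axl* was also the 1 member whose genotypes did not overlap, as against 5.51% of all genes and 9.44% of those above the median signal that were lower without overlap (4.67% of all genes were higher without overlap). By the methods' t-test 0 of 5 passed after Benjamini-Hochberg adjustment and 1 without it, again *Axl*. All 5 means were lower in null lungs, by 0.01 to 0.38. Of all genes 49.8% had a difference below 0 and 49.2% one above 0. Among genes above the median signal, as all 5 members were, these shares were 65.4% and 33.5%. With quantile normalization or median centring all 5 remained lower. Without WT replicate 1 and null replicate 3 together 4 were lower and *Tyro3* stood at 0.005.

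*Axl* read 7.12, 7.34 and 7.19 in null lungs, against 7.58, 7.60 and 7.61 in WT lungs. The WT lungs lay within 0.03 of each other, the null lungs spread over 0.22, and the highest null lung was 0.24 below the lowest WT lung. Means were 7.22 ± 0.11 in null lungs and 7.60 ± 0.02 in WT lungs (SD, n = 3 each). The difference of -0.38 had a standard error of 0.082 and a 95% interval of -0.57 to -0.19 from limma, with an adjusted p of 0.89 over all genes, so that it missed the threshold. An exact two-sided permutation test over lungs gave p = 0.9 for *Tyro3*, 0.8 for *Mertk*, 0.3 for *Gas6* and 0.3 for *Pros1*. For *Axl* this exact permutation test gave p = 0.1, the smallest that 3 against 3 allow. Without overlap of the genotypes it could give no other value. As *Axl* was picked from these same lungs, the test adds nothing independent for it. Genes of the same group of signal had a median difference of -0.06. Under each of 17 other treatments of the values and subsets of the lungs *Axl* was lower, between -0.44 and -0.33, with adjusted p from 0.0531 to 0.999 in limma and the methods' t-test. The lowest of these came with a term that sets null replicate 3 and WT replicate 1 apart, a choice taken from the data and not from the labels. In whole lung, fewer cells that carry *Axl* and less *Axl* RNA per cell cannot be told apart.

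**Figure D1:**
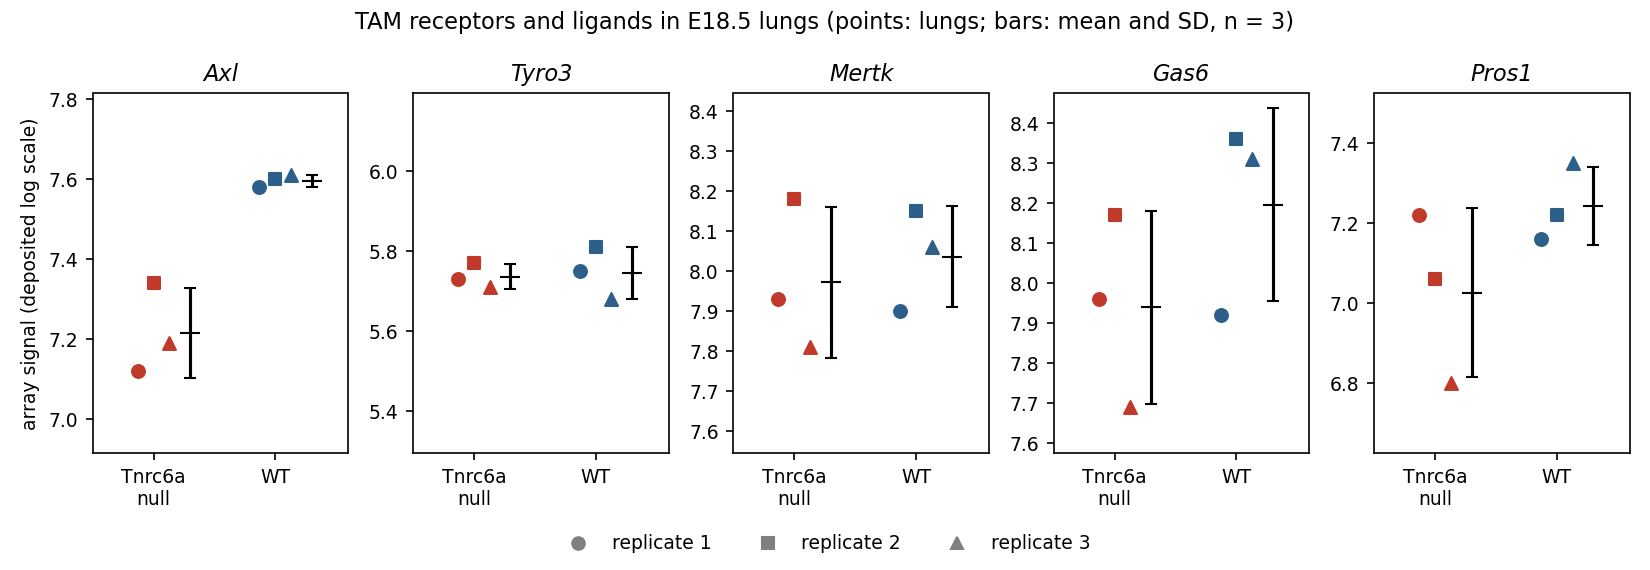
Array signal of the 5 genes in each lung, on the deposited log scale, with *Tnrc6a* null lungs on the left and WT lungs on the right of each panel; every panel spans the same range. Points are lungs, with a symbol for the replicate number, and bars give mean and SD. For *Axl* the null lungs (7.12 to 7.34) lie below the WT lungs (7.58 to 7.61), whereas the genotypes overlap for the other 4 genes.

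The other receptors showed no such separation. *Tyro3*, best known from the nervous system, read 5.73, 5.77 and 5.71 in null lungs, against 5.75, 5.81 and 5.68 in WT lungs. All null values fell inside the range of the WT values. Its difference was -0.01 with a 95% interval of -0.21 to 0.19 (adjusted p = 0.993 from limma). *Mertk*, the receptor by which macrophages take up dying cells, read 7.93, 8.18 and 7.81 in null lungs, against 7.90, 8.15 and 8.06 in WT lungs. Null replicate 2 was the highest of all 6 lungs and null replicate 3 the lowest. Its difference was -0.06 with a 95% interval of -0.32 to 0.19 (adjusted p = 0.954 from limma), and without null replicate 3 it was 0.02. The interval for *Mertk* holds differences nearly as large as that of *Axl* as well as rises.

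Both ligand genes had lower means in null lungs, with overlap of the genotypes. *Gas6*, whose product binds all TAM receptors, read 7.96, 8.17 and 7.69 in null lungs, against 7.92, 8.36 and 8.31 in WT lungs. WT replicate 1 lay among the null lungs, below null replicates 1 and 2. The means were 7.94 ± 0.24 in null lungs and 8.20 ± 0.24 in WT lungs (SD, n = 3 each), and the difference of -0.26 had a 95% interval of -0.60 to 0.08 (adjusted p = 0.89 from limma). It was -0.40 without WT replicate 1, -0.13 without null replicate 3 and -0.27 without both, the last with an adjusted p of 0.166 from limma (standard error 0.077). *Pros1*, which encodes the anticoagulant protein S, read 7.22, 7.06 and 6.80 in null lungs, against 7.16, 7.22 and 7.35 in WT lungs. Null replicate 1 equalled WT replicate 2, and null replicate 3 was the lowest lung. The means were 7.03 ± 0.21 in null lungs and 7.24 ± 0.10 in WT lungs (SD, n = 3 each), and the difference of -0.22 had a 95% interval of -0.48 to 0.05 (adjusted p = 0.89 from limma). Without null replicate 3 it was -0.10.

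WT replicate 1 stood with the other WT lungs for *Axl*, at 0.17 above the mean of the 6 lungs, but at -0.15 for *Gas6* and -0.11 for *Mertk*. For *Pros1* and *Tyro3* it lay close to the mean, at 0.03 and 0.01. *Mertk* and *Gas6* followed each other most closely (Pearson r = 0.90 over 6 lungs), and *Gas6* and *Pros1* next (r = 0.75), whereas *Axl* reached 0.66 with *Gas6*, 0.56 with *Pros1*, 0.45 with *Mertk* and 0.21 with *Tyro3*. These correlations rest on 6 lungs of 2 genotypes and are descriptions. Within each lung, the *Axl* signal minus the *Mertk* signal was -0.81, -0.84 and -0.62 in null lungs, against -0.32, -0.55 and -0.45 in WT lungs. *Axl* minus *Tyro3* was 1.39, 1.57 and 1.48 in null lungs, against 1.83, 1.79 and 1.93 in WT lungs. Both contrasts were lower in every null lung than in every WT lung, by 0.32 and 0.37 on average, so that within a lung *Axl* was low in null relative to either other receptor. Against the ligands the genotypes overlapped, with mean shifts of -0.12 for *Axl* minus *Gas6* and -0.16 for *Axl* minus *Pros1*. As *Axl* was picked for its difference, these contrasts were not tested.

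**Figure D2:**
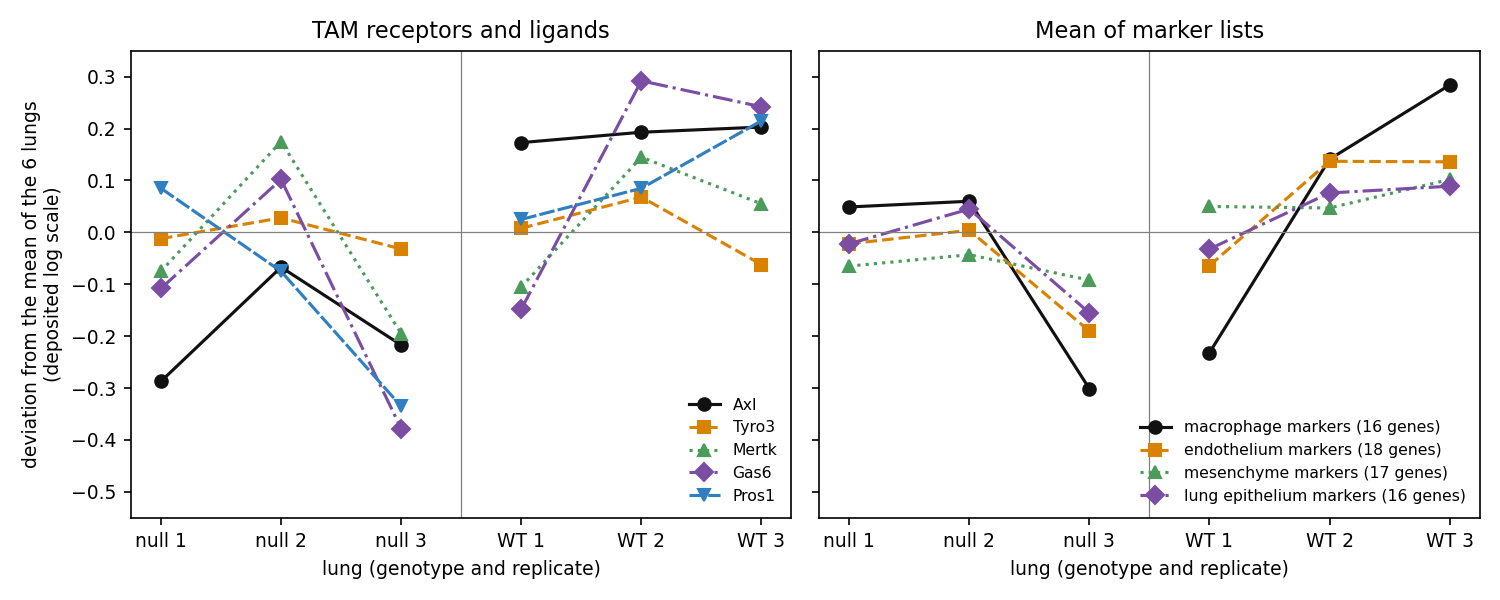
Deposited log signal of each lung minus the average over the 6 lungs, for the 5 genes (left) and for the means of 4 marker lists (right), with null lungs left of WT lungs. Lines only join the points of a gene or list within a genotype. *Axl* is above 0.17 in each WT lung and below -0.06 in each null lung. *Gas6* and the macrophage, endothelium and lung epithelium markers are lowest in null replicate 3 and WT replicate 1.

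MicroRNA genes that earlier work in human cells tied to AXL were examined, because TNRC6A acts in the microRNA pathway. There, miR-34a and the miR-199 family were reported to repress AXL. Mature sequences of the mouse counterparts, from RefSeq (GRCm38.p6), are shown 5′ to 3′ with the seed, bases 2 to 8, in capitals, together with miR-449a, known from multiciliated airway cells. They show which of these microRNAs share a seed:
mmu-miR-34a-5p: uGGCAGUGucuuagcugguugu
mmu-miR-449a-5p: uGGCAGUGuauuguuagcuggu
mmu-miR-199a-5p: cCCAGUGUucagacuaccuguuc
miR-34a (chr4:150068473-150068494, plus strand) and miR-449a (chr13:113037549-113037570, plus strand) have the seed GGCAGUG in common, and miR-199a-5p (chr9:21496537-21496559, minus strand, and chr1:162217844-162217866, plus strand) has another, CCAGUGU. Whether the mouse *Axl* mRNA holds matches to them was not analysed here. The array probes read the microRNA gene and not the mature molecule. *Mir34a* read 3.34, 3.31 and 3.24 in null lungs, against 3.28, 2.98 and 3.26 in WT lungs. *Mir199b* read 2.71, 3.15 and 3.05 in null lungs, against 2.63, 2.99 and 2.95 in WT lungs. *Mir199a-1* read 5.36, 5.37 and 5.78 in null lungs, against 5.52, 5.75 and 5.46 in WT lungs. The genotypes overlapped for all 3, with differences of 0.12, 0.11 and -0.07. None of the 3 lay at an unadjusted p under 0.05. Their median difference was 0.11, but -0.02 after quantile normalization and -0.04 without WT replicate 1 and null replicate 3. A list for the miR-34 and miR-449 families held *Mir34a*, *Mir34b*, *Mir34c*, *Mir449a*, *Mir449c* and *Cdc20b*, the last not itself a microRNA gene. Of these 6 measured genes all 6 had higher means (median 0.11), 4 of them after quantile normalization. None of the 6 lay at an unadjusted p under 0.05. Only 1 of these 6 genes, *Cdc20b*, and 1 of the 3 tied to AXL, lay above the median signal. Dim genes at large tended to be higher in null lungs. Their median differences were 0.15, 0.11 and 0.06 in the 3 dimmest of the equal groups of genes. A median of 0.11 is therefore not particular to the genes of these lists. *Mir449a* stood at 0.24 (standard error 0.174, adjusted p = 0.898 from limma). *Mir199a-2* had no probe set of its own gene alone.

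Among all receptor tyrosine kinases, *Axl* had the second most negative difference and the smallest unadjusted p. The family was selected on these lungs with *Axl* among the lower genes, so this rank is a description. *Axl* is also included in the counts of lower genes below. Of 58 such genes 56 were measured. Of these, 38 had lower and 17 higher means in null lungs, with a median difference of -0.06, against 0.00 over all genes and -0.05 over those above the median signal. Of the 56 genes, 38 lay above the median signal. Of all genes 2.96% were lower and 2.46% higher at an unadjusted p under 0.05, and of those above the median signal 5.25% and 1.51%. At this p by limma, 6 of the 56 were lower and 0 higher, and 0 passed after adjustment. After *Axl* these were *Pdgfrb*, a receptor of pericytes and fibroblasts (-0.27), *Erbb2* (-0.26), *Fgfr1* (-0.23), the endothelial receptor *Tie1* (-0.21) and the collagen receptor *Ddr1* (-0.20). *Ntrk2* had a difference of -0.43, more negative than that of *Axl*, with a 95% interval of -1.12 to 0.26. With quantile normalization 3 of the 56 were lower at an unadjusted p under 0.05, with median centring 9, and without WT replicate 1 and null replicate 3 the number was 13. The lower calls over all genes moved as well, with 487, 1065 and 1742 under these settings and 591 as deposited.

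**Figure D3:**
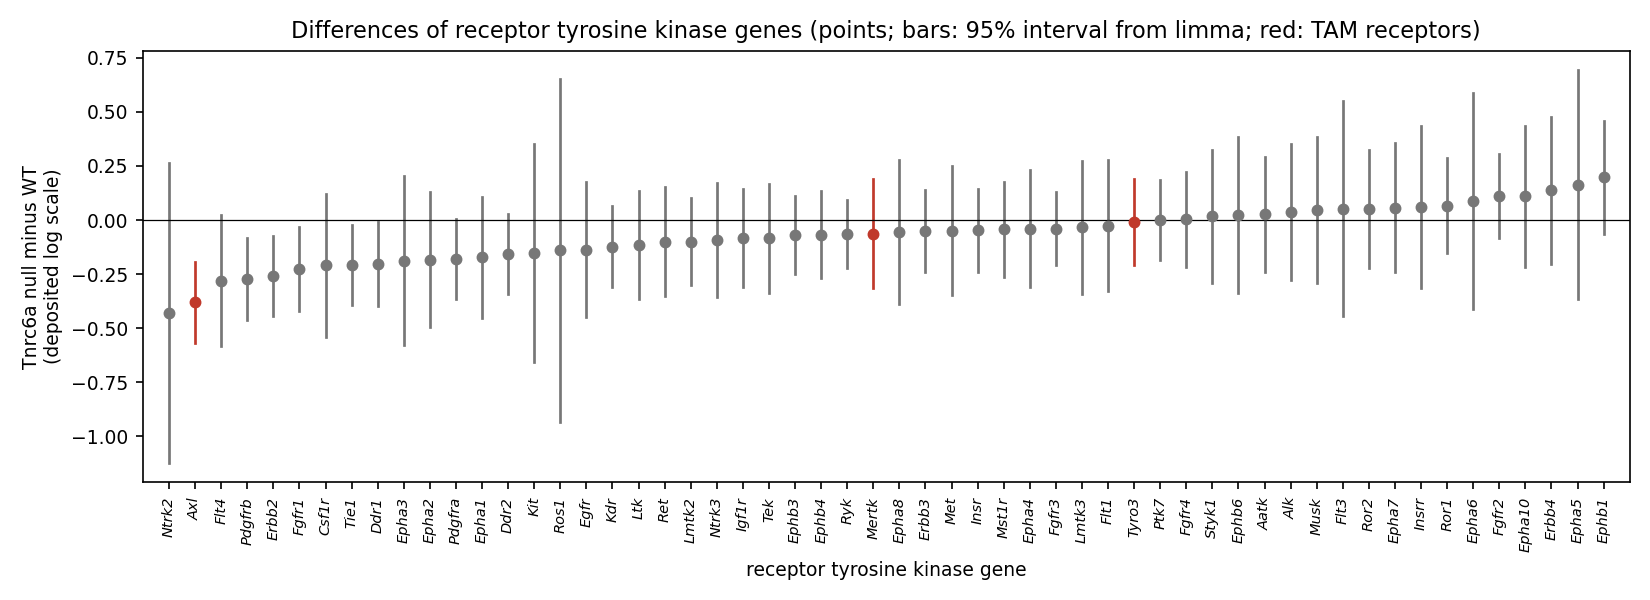
Difference of each of 56 receptor tyrosine kinase genes, *Tnrc6a* null minus WT on the deposited log scale, ordered from the most negative; points are the differences and bars the 95% interval from limma, with the TAM receptors in red. *Axl* is second at -0.38, a rank that is a description because the family was selected with *Axl* among the lower genes. *Mertk* lies at -0.06 and *Tyro3* at -0.01, both with intervals that hold 0.

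Enzymes that prepare the ligands gave small differences. *Ggcx*, the carboxylase that both ligands need, stood at -0.02, and *Vkorc1* and *Vkorc1l1*, which regenerate vitamin K, at -0.05 and 0.04, with overlap of the genotypes in all 3. None of 11 other genes of carboxylated proteins lay at an unadjusted p under 0.05 (7 lower, 4 higher, median -0.03). Other proteins proposed as TAM ligands were likewise near 0, with *Lgals3* at -0.03, *Tub* at -0.04 and *Tulp1* at 0.07. Among 6 genes of protein S partners in anticoagulation none lay at an unadjusted p under 0.05, and *Thbd*, which encodes thrombomodulin, had the smallest p (difference -0.40, standard error 0.232). *Thbd* read 8.70, 8.73 and 7.83 in null lungs, against 8.53, 8.99 and 8.94 in WT lungs, with null replicate 3 far below the other 5 lungs. In 3 of these lists the median turned sign with the scaling. It was 0.03 for the vitamin K cycle and 0.02 for the other proposed ligands after quantile normalization, against -0.02 and -0.03 as deposited. For the protein S partners it was 0.03 as deposited, -0.04 after quantile normalization and -0.01 with median centring.

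Genes that cut or shield the receptors were measured as well, since ADAM10 and ADAM17 shed the outer part of AXL and MERTK. *Adam10* stood at -0.08 and *Adam17* at -0.08, and *Rhbdf2*, which helps ADAM17 mature, at -0.04, all with overlap. *Timp3*, an inhibitor of these proteases, read 10.25, 10.43 and 10.35 in null lungs, against 10.49, 10.51 and 10.58 in WT lungs. Its groups did not overlap, and the difference was -0.18 (standard error 0.074, adjusted p = 0.89 from limma). All 4 genes lay above the median signal, where 9.44% of genes were lower in null lungs without overlap.

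Of 17 genes of other phosphatidylserine receptors and bridges, 13 were lower and 4 higher, with a median of -0.09. At an unadjusted p under 0.05, 3 were lower, as against 2.96% of all genes, and 6 were lower without overlap, as against 5.51%. Of the 17 genes 11 lay above the median signal, where these shares were 5.25% and 9.44%. *Itgb5* read 7.53, 7.74 and 7.58 in null lungs, against 7.75, 8.15 and 8.04 in WT lungs (difference -0.36, standard error 0.113). Its partner *Itgav* read 8.22, 8.41 and 8.25 in null lungs, against 8.42, 8.52 and 8.51 in WT lungs (difference -0.19, standard error 0.079). Together they form an integrin that binds such bridging proteins. *Edil3*, a bridging protein, read 6.26, 6.34 and 5.67 in null lungs, against 6.51, 6.48 and 6.42 in WT lungs (difference -0.38, standard error 0.164). All null lungs were below all WT lungs for these 3 genes, by as little as 0.01 for *Itgb5* and *Itgav*. The others that were lower without overlap, *Cd36*, *Lrp1* and *Havcr2*, stood at -0.17, -0.14 and -0.12, and the integrin gene *Itgb3* at 0.01. *Mfge8*, which encodes a bridge to such integrins, stood at -0.003, and *Stab2*, a receptor of sinusoidal endothelium, read 5.84, 5.86 and 6.68 in null lungs, against 5.70, 5.66 and 5.74 in WT lungs (difference 0.43, standard error 0.205), without overlap. None of the 17 passed an adjusted p of 0.05 in limma.

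Downstream of the receptors most means were lower by small amounts, as were 65.4% of all genes above the median signal. Of 15 measured genes of TAM signalling, 14 of them above that signal, 14 were lower, with a median of -0.12. At an unadjusted p under 0.05, 2 were lower, as against 2.96% of all genes and 5.25% of those above the median signal. *Vav1*, an exchange factor of blood cells, read 4.88, 4.72 and 4.67 in null lungs, against 5.05, 5.16 and 5.25 in WT lungs (difference -0.40, standard error 0.112). *Pik3ca*, a catalytic subunit of PI3 kinase, read 8.23, 8.21 and 8.14 in null lungs, against 8.40, 8.34 and 8.38 in WT lungs (difference -0.18, standard error 0.069). *Akt1* and *Pik3r1* also lay lower in each null lung, at -0.16 and -0.17. Quantile normalization moved the median of the list to -0.07, and leaving out WT replicate 1 and null replicate 3 moved it to -0.05. All 13 genes of the engulfment machinery were lower on average, by 0.04 to 0.28 with a median of -0.11, none at an unadjusted p under 0.05. With quantile normalization 12 of the 13 were lower, and without WT replicate 1 and null replicate 3 there were 10, of which 4 lay at an unadjusted p under 0.05, as did 1742 lower genes of all genes in these lungs. Of 8 genes of interferon signalling and its suppressors 7 were lower (median -0.09), with *Jak1* at -0.19 the 1 gene at an unadjusted p under 0.05. *Twist1*, *Socs1* and *Socs3*, which TAM receptors induce in immune cells, stood at -0.01, -0.11 and 0.16, with overlap. Scramblases and flippases that set phosphatidylserine exposure had none of 7 at an unadjusted p under 0.05 (median -0.03). Of 11 factors proposed to bind the AXL promoter in human cells 10 were lower, none at an unadjusted p under 0.05 (median -0.12, and -0.06 after quantile normalization), with *Yap1* closest at -0.17 (standard error 0.082). Without WT replicate 1 and null replicate 3, 8 of the 11 were lower, 4 at an unadjusted p under 0.05. In the same lungs 1742 of all 19938 genes were lower at this p, and 1456 of the 9972 above the median signal. The engulfment list without these 2 lungs is to be read against the same counts. None of the genes in these 5 lists passed an adjusted p of 0.05 in limma.

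Markers of lung cell types are given beside these values, to be read against the 65.4% of genes above the median signal that were lower. At an unadjusted p under 0.05 in limma, 2.96% of all genes were lower, and 5.25% of those above the median signal. Lower without overlap were 5.51% and 9.44%. For macrophages 13 of 16 genes had lower means in null lungs (median -0.14), and the mean of the list, relative to the 6 lungs, ranged from -0.30 to 0.06 in null lungs and from -0.23 to 0.28 in WT lungs. Their order resembled that of *Gas6* and *Mertk*, with null replicate 3 and WT replicate 1 lowest. These 2 lungs were also lowest for the lists of endothelium, lung epithelium, mesothelium and platelets, so the order is not particular to macrophages. Of the 16 macrophage genes, 2 were lower at an unadjusted p under 0.05, *Mrc1* and *Adgre1*. Another 3 had higher means, *Cd14* (0.24), *Itgam* (0.23) and *Trem2* (0.13). *Adgre1*, a surface receptor of macrophages, had the most negative difference (-0.51, standard error 0.181), with overlap of the genotypes. *Mrc1*, the mannose receptor, read 5.65, 5.54 and 5.32 in null lungs, against 5.98, 5.96 and 5.84 in WT lungs (difference -0.42, standard error 0.111, adjusted p = 0.89 from limma). For mesenchyme 16 of 17 were lower (median -0.12). The list ranged from -0.09 to -0.04 in null lungs and from 0.05 to 0.10 in WT lungs. As for *Axl*, the genotypes did not overlap and WT replicate 1 stood with the other WT lungs. The same held for the means of the lists of engulfment machinery, TAM signalling and proposed AXL promoter factors, so it is not particular to mesenchyme. Of the 17 mesenchyme genes 6 were lower without overlap. Of these genes *Eln*, *Pdgfrb*, *Postn* and *Tcf21* lay at an unadjusted p under 0.05, at -0.22 to -0.30. For blood vessel endothelium 14 of 18 were lower (median -0.12), with a range from -0.19 to 0.00 in null lungs and from -0.06 to 0.14 in WT lungs. Of the 18, 5 were lower at an unadjusted p under 0.05, the most at this p of any marker list, and all 5 without overlap. They were *Calcrl*, a receptor subunit for adrenomedullin (-0.54), *Ace*, the angiotensin-converting enzyme (-0.50), the junction genes *Cdh5* (-0.23) and *Pecam1* (-0.18), and *Tie1*. For lung epithelium 11 of 16 were lower (median -0.08), 1 of them at an unadjusted p under 0.05, with a range from -0.16 to 0.05 in null lungs and from -0.03 to 0.09 in WT lungs. Smooth muscle (median -0.05), mesothelium (-0.06), platelets (0.01) and erythroid cells (0.15) had no gene at an unadjusted p under 0.05. Genes of nerve and Schwann cells had none either and lay below the median signal throughout. The part of any cell type in the values of *Axl* or its ligands was not tested.

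The genes most like each member over the 6 lungs, among those above the median signal, are given as a description, since many genes reach high correlations over so few lungs. *Axl* was matched most closely by *Lamb1*, which encodes a laminin chain, by the laminin receptor gene *Dag1* and by *Arhgef15*, an exchange factor of endothelial cells (Pearson r = 0.994 each), then by *Csnk1e* (0.986) and *Ttbk2* (0.985). *Arhgef15* read 6.71, 6.84 and 6.73 in null lungs, against 7.03, 7.02 and 7.07 in WT lungs, with the same order of null lungs as *Axl*. *Mertk* was closest to *Nr1h3*, which encodes the liver X receptor alpha (r = 0.997), at 6.87, 7.17 and 6.69 in null lungs, against 6.81, 7.13 and 7.05 in WT lungs. After it came *D17H6S53E*, *Dhx40*, *Gpr108* and *AU040320* (0.988 to 0.996). *Gas6* was closest to *Sh3bp4*, *Krt80* and *Limk1* (0.998 each), with *Pef1* and *Nectin1* next, *Pros1* to *Btaf1* (0.996), *Fam149a*, *Stox2*, *Stx16* and *Fchsd2*, and *Tyro3* to *Plekhf1* (0.988), *Cotl1*, *Zfp747*, *Lime1* and *Rab28*. No gene was named for more than 1 member.

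**Figure D4:**
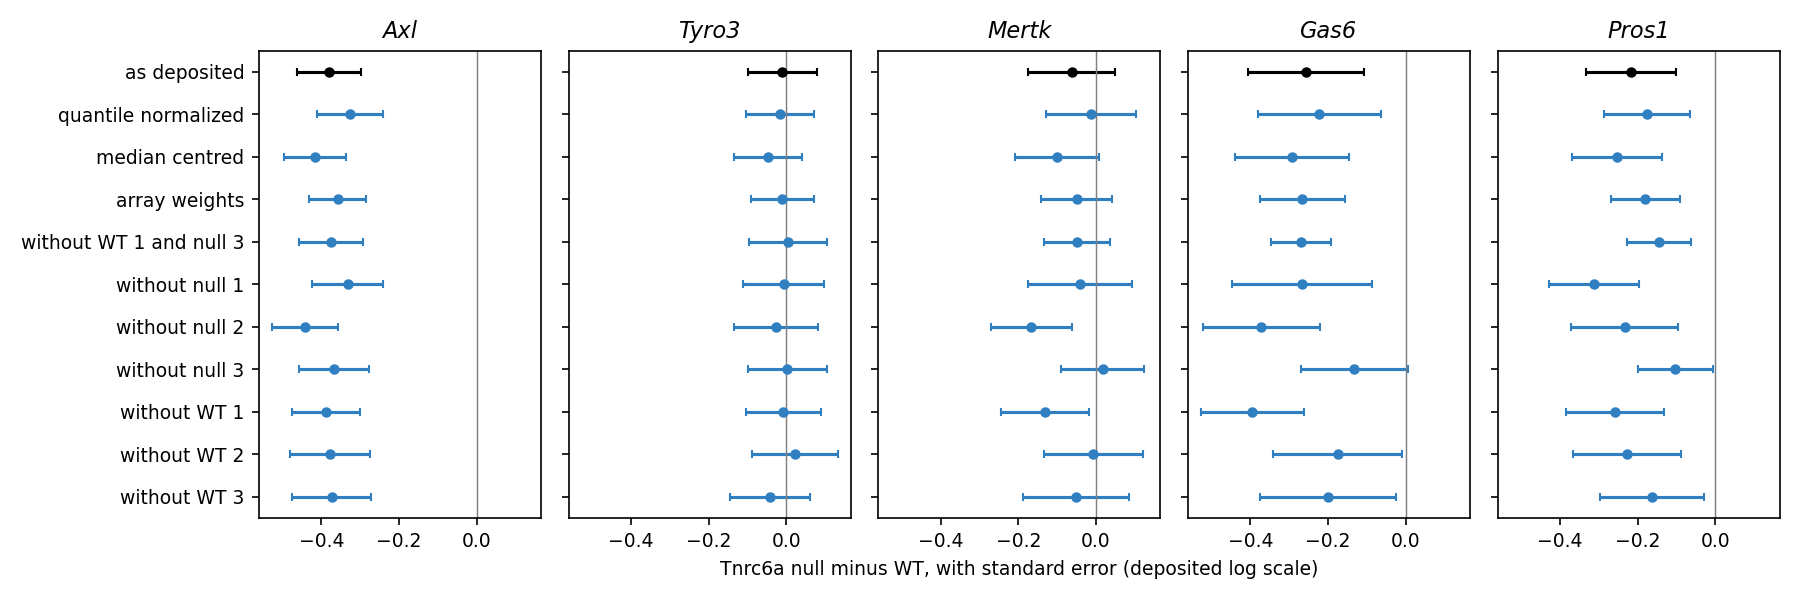
Difference of each of the 5 genes, *Tnrc6a* null minus WT on the deposited log scale, as deposited (black) and under other treatments of the values or without named lungs (blue); bars are the standard error. *Axl* stays between -0.44 and -0.33, *Gas6* between -0.40 and -0.13 and *Pros1* between -0.31 and -0.10, whereas *Tyro3* and *Mertk* lie on both sides of 0.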

How the data were processed

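Total RNA of individual E18.5 lungs was hybridised to Affymetrix Mouse Gene 1.0 ST arrays. The authors deposited 1 value per probe set and lung, which the labels call log2; the processing notes name MAS5, with version and settings not given in the sources used here. Scanner data were not used, signal over background is unknown, and the number of arrays limits the precision. No litter is given for any lung, and p-values measure the spread between single embryos.

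Of 35045 probe sets, 21789 carried 1 gene symbol, and RefSeq (GRCm38.p6) gave 21698 of these their current symbol through the Entrez ID. The brightest probe set stood for a gene. The 19938 genes were compared on the deposited values with limma 3.58.1 under R 4.3.3 (eBayes, trend = TRUE), with Benjamini-Hochberg adjustment over all genes and a threshold of 0.05. Lists are described by counts and medians, with no test. Summaries and plots used Python 3.11.15, pandas 2.3.3 and matplotlib 3.10.9.

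Members, lists and alternatives were chosen with earlier results of these data known. Genes named are the members, list members at an unadjusted p under 0.05 or with the smallest p, all genes of short lists, and the 5 genes most correlated with each member among those above the median signal; further genes of the lists and *Sftpc* were chosen for their role or after their values were seen.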

Additional observations from a re-analysis of the deposited data

How the results depend on the processing

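With the adjusted threshold of 0.05, 81 values of the 5 members under 17 alternatives each kept their direction and none crossed the threshold. The other 4 were small values that changed sign, 0.005 for *Tyro3* without WT replicate 1 and null replicate 3, and, when 1 lung was left out, *Tyro3* (range -0.043 to 0.022) and *Mertk* (range -0.167 to 0.018, the highest without null replicate 3). Leaving out 1 lung gave -0.442 to -0.332 for *Axl*, -0.395 to -0.132 for *Gas6* and -0.313 to -0.103 for *Pros1*. The number of genes past the adjusted threshold, 1 as reported, was 2 with array weights, 0 with the methods' t-test, 56 with a term for null replicate 3 and WT replicate 1, 23 without both, and 0 to 1 without 1 lung, the 0 without WT replicate 3. At an unadjusted p under 0.05 there were 1081 genes, and 686 among genes above the median signal only, 2447 with array weights, 2971 with that term, 2895 without both lungs, and 614 (without WT replicate 2) to 1730 (without WT replicate 1) without 1 lung. Of the 1081 genes 591 were lower, and with median centring 1065 of 1380, and without a trend in eBayes 366 of 974. The causes were not tested. Deviations of lungs with the same replicate number had no common sign (correlations -0.295, 0.361 and -0.162 for replicates 1, 2 and 3). Null replicate 3 and WT replicate 1 reached 0.538. As no litter is given, these values cannot settle whether the numbers mark pairs. With the replicate block 1 gene passed the adjusted threshold, 822 lay at an unadjusted p under 0.05, and *Axl* stood at -0.380 (adjusted p = 0.95 from limma). List medians under other scalings and without both lungs were added after seeing the data.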
